A study of Homo sapiens with 8 samples.

Results

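The unfolded protein response and the integrated stress response were followed here through 32 genes, which encode chaperones and foldases of the endoplasmic reticulum (ER), its degradation machinery, the ER stress sensors, and the transcription factor ATF4 with its targets. The genes were taken by symbol from a list of these roles and not by their measured values, although earlier results of these data were known. Each matched 1 of the 60710 gene rows of the count table. All 32 were among the 16186 genes that passed the filter on low counts and were tested. The cells were A375, an established human melanoma line kept in DMEM with serum. The parental line was cultured without treatment (NT, 4 libraries) or with 50 ng/mL human recombinant TNF, an inflammatory cytokine, for 24 h (TNF, 4 libraries), and polyA RNA was sequenced. The 4 libraries of each group came from 4 independent experiments, numbered 1 to 4 by the dates in the sample titles. By these titles every date gave 1 NT and 1 TNF library, although another date is also recorded for the NT samples. Both groups hold whole cultures of 1 cell line, so a lower value of a gene can come from fewer expressing cells or from less RNA per cell, which cannot be told apart.

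The ER folds and glycosylates secreted and membrane proteins with the help of chaperones such as BiP. When unfolded proteins accumulate, the membrane sensors IRE1, PERK and ATF6 are activated. IRE1 splices the XBP1 message, ATF6 is released as a transcription factor, and both pathways raise chaperones and degradation factors through ER stress elements in promoters. PERK and other kinases phosphorylate the translation factor eIF2, which lowers protein synthesis while favouring translation of ATF4. ATF4 then induces genes of amino acid synthesis and import, the transcription factor CHOP, and a phosphatase subunit that reverses the phosphorylation. ATF4 is controlled in large part at translation and XBP1 by splicing, and neither step is measured by gene counts. Splicing of XBP1 was not analysed here.

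The libraries held 30989787 to 44373296 counts. The treatment could be seen in targets of NF-kB, the transcription factor that TNF activates: all 9 tested genes of a list of 10 were higher, among them CXCL8 with a log2 fold change of 7.90. SOX10, a factor of the melanocyte lineage, was at a mean of 1025 CPM in NT and 1177 CPM in TNF (CPM, counts relative to the library total after TMM scaling), whereas the pigment cell genes PMEL and MLANA were below 1 CPM in every library and TYR and DCT were at or near 0. S100B fell by 2.50 on the log2 scale, and NGFR and AXL rose by 0.96 and 0.57. The list of 10 melanoma and neural crest markers also held MITF and S100A1. Of the 8 tested, 2 were higher, 1 was lower and 5 did not pass with edgeR, which called 24.4% of all genes. Of 11 markers of leukocytes, endothelium, epithelium and fibroblasts, 4 (PTPRC, CD3E, EPCAM and COL3A1) stayed below 1 CPM in every library and none was at 0 in all. Their summed level was 55.3 to 63.1 CPM in NT and 64.9 to 103.9 CPM in TNF, and of the 7 tested, 3 were higher and 1 lower. The higher ones were CD68 (mean 23.7 to 56.9 CPM), PECAM1 (0.312 to 2.30) and KRT5 (0.192 to 1.61), the lower one was KRT14 (18.3 to 8.39), and VWF, at a log2 fold change of -1.55, did not pass (edgeR adjusted p = 0.0514). DESeq2, limma voom and a fit with the date as a replicate block each called 3 of these markers higher and 2 lower. The part of these genes in the results below was not tested. Both libraries of the fourth experiment stood apart on the second principal component, and 3 libraries (NT replicates 2 and 4 and TNF replicate 4) held 0.0119% to 0.0124% ribosomal, 7SK and 7SL RNA against 0.00233% to 0.00414% in the others.

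Promoter windows from RefSeq (GRCh38.p14, 250 bases before to 50 bases after the gene start) matched 31 of the 32 genes and were searched on both strands for 4 motifs of these pathways. The ER stress element ERSE was written as CCAAT and CCACG with 9 free bases between them, its variant ERSE-II as ATTGG and CCACG with 1 free base between them, the XBP1 element UPRE as TGACGTGG, and the C/EBP-ATF element CARE as TGATGNAA. RefSeq gives some genes more than 1 start, and a gene counted as holding a motif when any of its windows did. ERSE was found in 7 of the 31 genes (22.6%), HSPA5, HSP90B1, CALR, CANX, CRELD2, PDIA6 and XBP1, against 25 of 27305 genes overall (0.0916%). ERSE-II was found for HYOU1, SDF2L1 and HERPUD1, against 19 genes overall (0.0696%). UPRE was found only for HYOU1 among the members and in 0.927% of all genes. In HYOU1 it overlapped an ERSE-II match other than the one printed here. CARE was found for HERPUD1, CHAC1 and ASNS and in 4.46% of all genes. The other 19 genes held none of these letters. The members were listed for their roles in the pathways to which these motifs belong. Their shares against those of all genes are therefore not an independent result. A match describes the sequence and is not evidence that a factor binds there. The sites below are shown because they carry the elements of genes that rose with TNF (XBP1, HERPUD1) next to those of chaperones and ATF4 targets that did not pass the test. Each is read 5′ to 3′ on the gene's strand with the motif in capitals, which appears as its reverse complement where it lies on the opposite strand.
HSPA5 ERSE, chr9:125241386-125241414: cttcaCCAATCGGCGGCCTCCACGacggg
CALR ERSE, chr19:12938379-12938407: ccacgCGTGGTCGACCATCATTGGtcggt
CRELD2 ERSE, chr22:49918549-49918577: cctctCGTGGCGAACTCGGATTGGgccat
XBP1 ERSE, chr22:28800598-28800626: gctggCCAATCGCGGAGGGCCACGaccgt
SDF2L1 ERSE-II, chr22:21642109-21642129: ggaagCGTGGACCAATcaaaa
HYOU1 ERSE-II, chr11:119057269-119057289: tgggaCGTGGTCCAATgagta
HERPUD1 ERSE-II, chr16:56932020-56932040: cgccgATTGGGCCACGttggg
HERPUD1 CARE, chr16:56931961-56931978: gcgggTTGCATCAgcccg
CHAC1 CARE, chr15:40953257-40953274: tgccgTTGCATCActcct
ASNS CARE, chr7:97872464-97872481: aggcaTGATGAAActtcc

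In the GENCODE 44 annotation of GRCh38, the sites of HSPA5, CALR, XBP1, SDF2L1, HYOU1 and HERPUD1 overlapped no annotated gene, that of CRELD2 lay within an intron of CRELD2, and those of CHAC1 and ASNS lay within exons of their own genes. HERPUD1, which encodes an ER membrane protein of the degradation pathway, was the only member with both an ER stress element and a CARE. Its 250 bases directly upstream of the start, chr16:56931892-56932141 on the plus strand, overlap no annotated gene and are shown with the CARE (first capitals, opposite strand) and the ERSE-II (second capitals).
HERPUD1 upstream: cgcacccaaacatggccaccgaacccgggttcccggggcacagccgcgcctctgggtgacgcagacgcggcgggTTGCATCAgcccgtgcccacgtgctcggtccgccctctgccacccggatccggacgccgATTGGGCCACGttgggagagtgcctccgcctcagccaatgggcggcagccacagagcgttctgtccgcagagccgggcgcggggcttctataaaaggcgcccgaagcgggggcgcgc

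With TNF, 7 of the 32 genes rose, 2 fell and 23 did not pass the test (edgeR quasi-likelihood test, Benjamini-Hochberg adjusted p under 0.05 over all genes tested). Those that rose were the transcription factor XBP1, the sensor ERN1, the cochaperone DNAJB9, the degradation genes HERPUD1 and SYVN1, the phosphatase subunit PPP1R15A and the lipoprotein receptor VLDLR. Those that fell were PSAT1 and PHGDH, enzymes of serine synthesis. DESeq2 called 8 higher and 2 lower (15.6% and 12.2% of all genes), and limma voom 7 and 2 (14.4% and 10.1%). The called share of 28.1% lay near that of all genes tested, of which 24.4% were called, 14.5% higher and 9.9% lower. The median log2 fold change was 0.14 over the 32 genes and -0.0035 over all genes tested, and the medians of its absolute size were 0.22 and 0.22. Of the 32 genes, 9 had a log2 fold change below 0, against 50.5% of all genes tested.

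A fit that kept the experiment date as a replicate block called 12 higher and 3 lower, 46.9% of the 32 against 39.5% of all genes in that fit (21.3% higher, 18.2% lower). It added CALR, DNAJC3, MANF, PDIA3 and ATF6 to the higher genes and CRELD2 to the lower ones, and it kept all 9 calls of the fit without the block. One library moved the counts as well. Without TNF replicate 4, 12 were higher and 2 lower, where 15.2% of all genes were higher and 11.4% lower. Without NT replicate 2, 4 were higher and 2 lower, where 11.5% of all genes were higher and 6.79% lower. In 16 of the 32 the TNF library was above the NT library on all 4 dates, against 27.4% of all genes, and in 5 it was below on all 4 dates, against 25.9%.

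**Figure D1:**
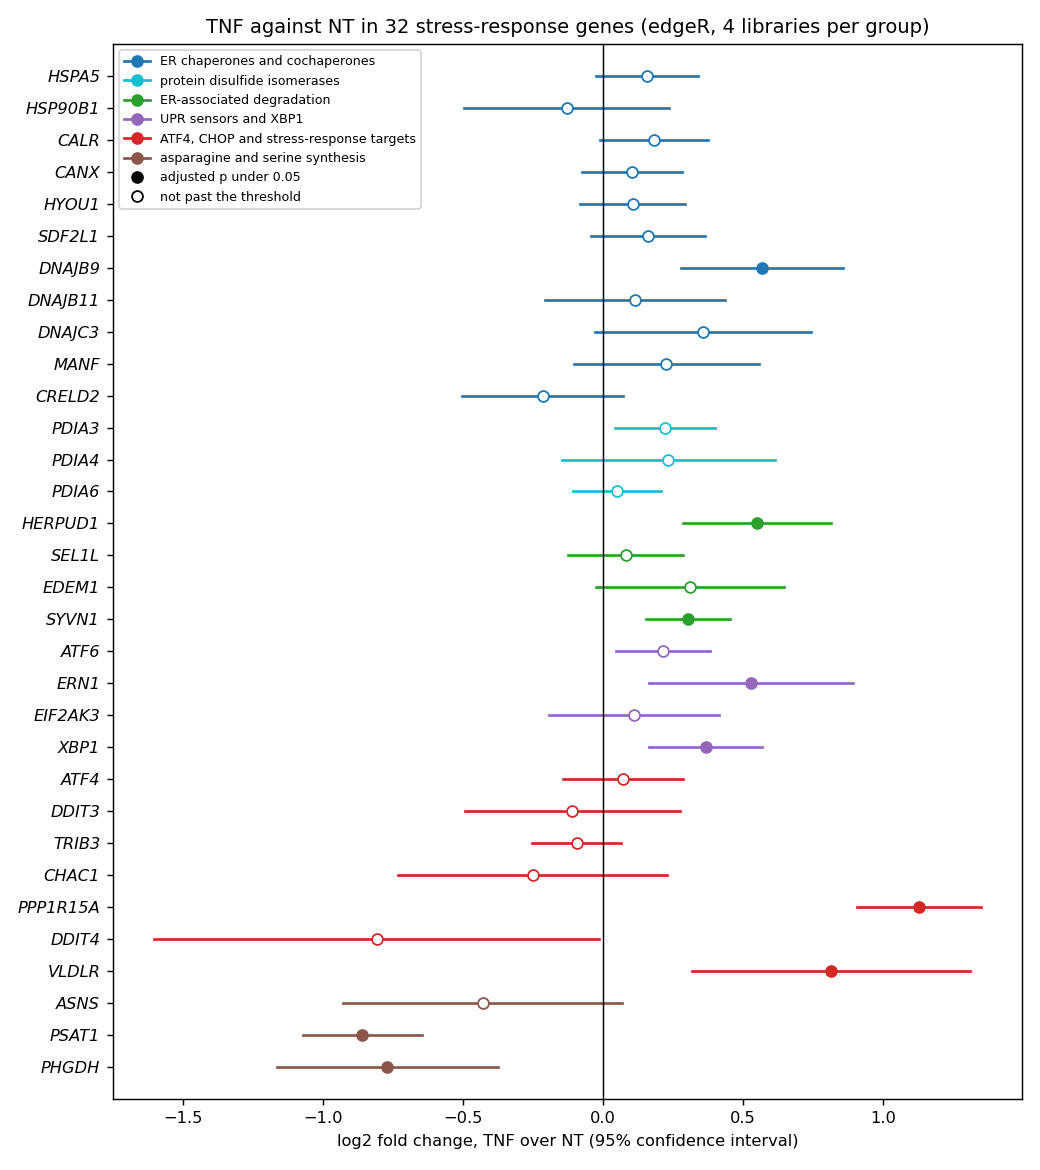
Log2 fold change of TNF over NT for the 32 genes (x axis, points with 95% confidence intervals from edgeR, 4 libraries per group), with genes in rows by role and filled points for an adjusted p under 0.05. The filled points run from PSAT1 at -0.86 to PPP1R15A at 1.13. Most chaperones and disulfide isomerases lie between 0 and 0.4 with intervals that include 0, while that of PDIA3 (0.04 to 0.40) does not.

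Among the sensors, ERN1 (ENSG00000178607.17, chr17:64039080-64130819, minus strand), which encodes IRE1, rose. Its level was 4.08, 3.66, 3.75 and 3.30 CPM in NT replicates 1 to 4 and 4.91, 6.48, 5.81 and 4.14 CPM in TNF replicates 1 to 4. Every TNF library was above every NT library, narrowly so for TNF replicate 4. The rise was 0.53 ± 0.17 on the log2 scale (SE, edgeR adjusted p = 0.0396). Dropping any library but TNF replicate 4 (0.0118 without it) ended the call, with edgeR adjusted p from 0.0546 to 0.126, as did upper-quartile scaling (0.0713), library totals (0.0882), no filter on low counts (0.0673) and dropping the 3 libraries with more ribosomal RNA (0.0663).

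ATF6, the sensor released by proteolysis, measured 75.6, 69.1, 70.8 and 81.3 CPM in NT and 78.8, 89.7, 86.4 and 89.5 CPM in TNF. The groups overlapped, since NT replicate 4 was above TNF replicate 1. Its log2 fold change of 0.21 (95% confidence interval 0.05 to 0.38) did not pass with edgeR (adjusted p = 0.066). It passed with the replicate block (edgeR adjusted p = 0.0179), with DESeq2 (adjusted p = 0.0497) and without NT replicate 4 or TNF replicate 1 (edgeR adjusted p = 0.0435 and 0.049). EIF2AK3, which encodes PERK, ranged from 9.91 to 13.5 CPM in NT and from 10.6 to 15.3 CPM in TNF. The change of 0.11 on the log2 scale had an interval of -0.19 to 0.41 (edgeR adjusted p = 0.625).

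XBP1 (ENSG00000100219.16, chr22:28794555-28800597, minus strand, 6 exons), whose message IRE1 splices, also rose. Its level was 68.96, 58.8, 67.8 and 68.3 CPM in NT and 86.4, 73.05, 85.05 and 95.6 CPM in TNF. The lowest TNF library, replicate 2, lay above the highest NT library, and within the 4 dates TNF exceeded NT by 0.33, 0.31, 0.33 and 0.48 on the log2 CPM scale. The mean moved from 65.96 ± 4.78 CPM in NT to 85.03 ± 9.27 CPM in TNF (SD, n = 4), which is 0.37 ± 0.09 on the log2 scale (edgeR adjusted p = 0.0144). The adjusted p was 0.0512 without NT replicate 2, the lowest NT library, and 0.0792 without the 3 libraries that held more ribosomal RNA.

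Of the 11 ER chaperones and cochaperones, DNAJB9 rose, 10 did not pass and none fell with edgeR without the block (1 higher and 0 lower also at an unadjusted p under 0.05, with DESeq2 and with limma voom). With the block 4 were higher and 1 lower. The shares of all genes tested were 14.5% higher and 9.9% lower, and 21.3% and 18.2% with the block. DNAJB9 (ENSG00000128590.5, chr7:108569867-108574850, plus strand, 3 exons) encodes a J-domain partner of BiP. Its level was 10.2, 8.96, 11.05 and 12.7 CPM in NT and 14.6, 14.7, 15.4 and 18.9 CPM in TNF, with no overlap of the groups. The fold change was 1.48 (log2 value 0.57 ± 0.13, edgeR adjusted p = 0.00922), and within dates the difference was 0.51, 0.71, 0.48 and 0.57 on the log2 CPM scale.

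HSPA5, which encodes BiP, the main chaperone of the ER lumen, measured 834, 929, 829 and 943 CPM in NT and 892, 1049, 1052 and 948 CPM in TNF. The TNF library was higher on each date, but TNF replicate 1 lay below NT replicates 2 and 4 and the difference in experiment 4 was 0.01 on the log2 CPM scale. On the log2 scale the change was 0.16, with an interval of -0.03 to 0.34 (edgeR adjusted p = 0.212, and 0.0703 with the replicate block).

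CALR, the lectin chaperone calreticulin, measured 911, 1069, 958 and 979 CPM in NT and 1053, 1202, 1201 and 988 CPM in TNF. TNF replicates 1 and 4 fell within the NT range, and the gene did not pass without the block (log2 fold change 0.18, edgeR adjusted p = 0.168). It passed with the block (edgeR adjusted p = 0.0355) and without TNF replicate 4 (0.0425). CANX, its membrane-bound relative calnexin, ranged from 888 to 1037 CPM in NT and from 956 to 1146 CPM in TNF, with a log2 fold change of 0.10 (interval -0.08 to 0.28, edgeR adjusted p = 0.417).

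DNAJC3, a cochaperone that can also inhibit eIF2 kinases, measured 65.95, 75.3, 65.8 and 53 CPM in NT and 86.02, 88.6, 103 and 55.1 CPM in TNF. TNF replicates 1 to 3 lay above every NT library and TNF replicate 4 below 3 of them. Its log2 change was 0.36 (interval -0.03 to 0.74, edgeR adjusted p = 0.175). The adjusted p was 0.0159 with the block and 0.0082 without TNF replicate 4.

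MANF and CRELD2, secreted ER stress-responsive proteins, took opposite directions within dates. MANF measured 84.2, 96.03, 91.3 and 121 CPM in NT and 92.6, 117, 105 and 145 CPM in TNF, and CRELD2 measured 25.1, 29.7, 27.04 and 33.2 CPM in NT and 20.03, 25.98, 23.02 and 29.9 CPM in TNF. For both genes the groups overlapped while all 4 dates went 1 way, up for MANF and down for CRELD2. Without the block neither passed (log2 fold changes 0.23 and -0.22, edgeR adjusted p = 0.322 and 0.276), and with it both did (edgeR adjusted p = 0.00564 and 0.0136).

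The other 4 chaperone genes had overlapping groups and did not pass in any of the 18 alternative fits. HSP90B1, the HSP90 of the ER, had a log2 fold change of -0.13 (interval -0.50 to 0.24) and was lower on 3 of 4 dates. HYOU1, a nucleotide exchange factor for BiP, was at 0.11 (interval -0.08 to 0.29). SDF2L1 and DNAJB11, which work as BiP cochaperones, were at 0.16 (interval -0.04 to 0.36) and 0.11 (interval -0.21 to 0.44).

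**Figure D2:**
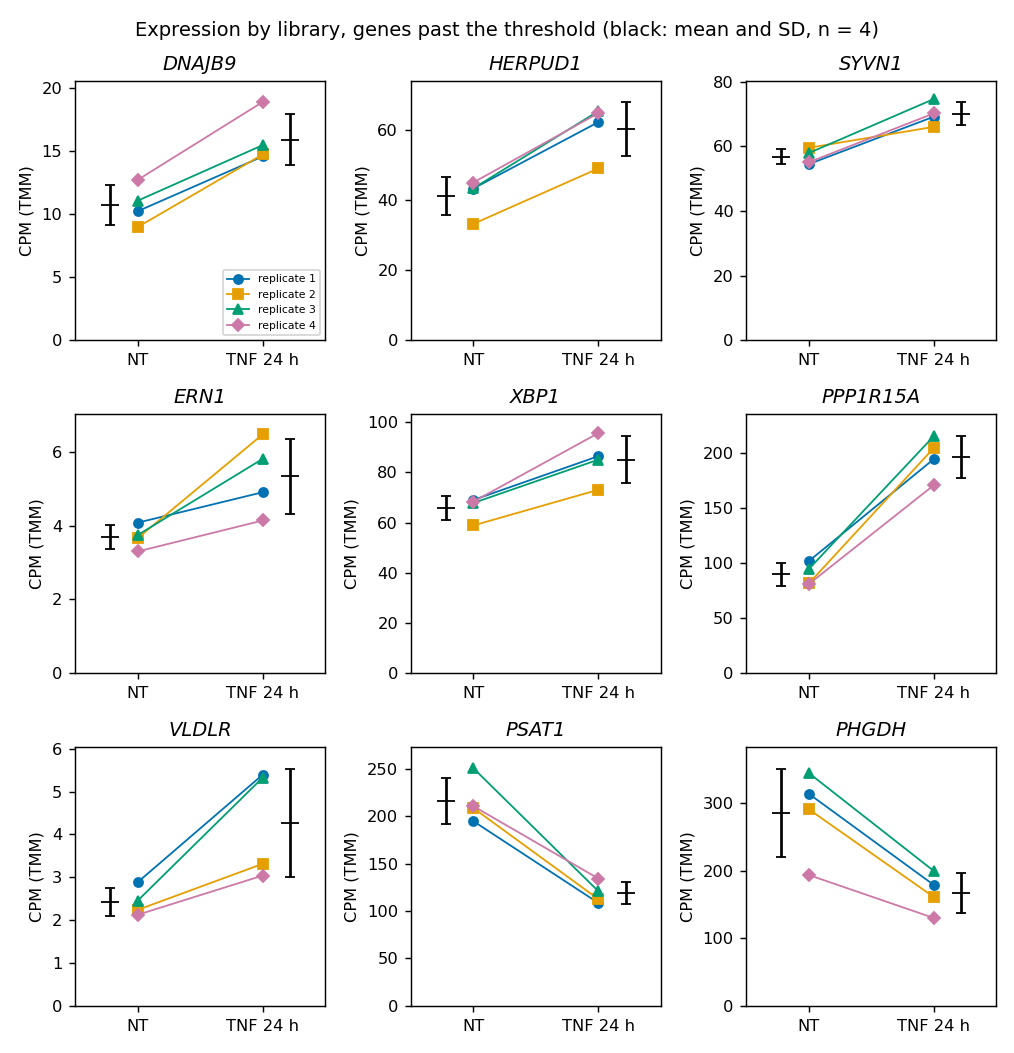
CPM after TMM scaling (y axis) in NT and TNF for the 9 genes past the threshold, with a line joining the 2 libraries of each experiment date and the mean and SD of 4 libraries in black. In 8 genes the groups do not overlap. In PHGDH, NT replicate 4 at 193 CPM lies below TNF replicate 3 at 199 CPM.

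None of the 3 protein disulfide isomerases, which form and reshuffle disulfide bonds, passed with edgeR, DESeq2 or limma voom, and 1, PDIA3, had an unadjusted p under 0.05. Over all genes tested, edgeR called 24.4%. PDIA3 measured 402, 432, 394 and 382 CPM in NT and 457, 484, 516 and 418 CPM in TNF. Only TNF replicate 4 lay within the NT range. The change was 0.22 on the log2 scale (interval 0.04 to 0.40, edgeR adjusted p = 0.074), and it passed with the block (0.012) and without TNF replicate 4 (0.0149). A pseudogene row, PDIA3P1, held 0.905% as many counts as PDIA3.

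PDIA4 measured 155, 161, 132 and 128 CPM in NT and 172, 183, 213 and 110.4 CPM in TNF. TNF replicate 4 was the lowest of all 8 libraries and the other TNF libraries were the 3 highest. Its log2 change of 0.23 did not pass (interval -0.15 to 0.61, edgeR adjusted p = 0.382, and 0.325 with the block), and without TNF replicate 4 the adjusted p was 0.0171. PDIA6 ranged from 314 to 356 CPM in NT and from 327 to 370.2 CPM in TNF, a log2 fold change of 0.05 (interval -0.11 to 0.21) that took the opposite sign with upper-quartile scaling and with library totals.

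Of the 4 degradation genes, HERPUD1 and SYVN1 rose, while SEL1L and EDEM1 did not pass. Among all genes tested, 14.5% were higher and 9.9% lower. HERPUD1 (ENSG00000051108.15, chr16:56932142-56944864, plus strand, 8 exons) recruits ubiquitin ligase components at the ER membrane. Its level was 43.3, 33.2, 43.3 and 45 CPM in NT and 62.2, 49, 65.4 and 64.8 CPM in TNF. Replicate 2 was the lowest in both groups, yet the groups did not overlap, and the differences within dates were nearly equal at 0.52, 0.56, 0.59 and 0.53 on the log2 CPM scale. The mean moved from 41.2 ± 5.40 CPM in NT to 60.3 ± 7.68 CPM in TNF (SD, n = 4), or by 0.55 ± 0.12 on the log2 scale (edgeR adjusted p = 0.00667).

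SYVN1 (ENSG00000162298.19, chr11:65121780-65134532, minus strand, 16 exons) encodes HRD1, the ubiquitin ligase of the degradation complex. Its level was 54.5, 59.6, 57.97 and 55.1 CPM in NT and 69.2, 66.1, 74.7 and 70.2 CPM in TNF, again without overlap. The rise was 0.30 ± 0.07 on the log2 scale (edgeR adjusted p = 0.00769). SEL1L, the partner of HRD1, ranged from 55.7 to 60.3 CPM in NT and from 50.3 to 67.9 CPM in TNF (log2 fold change 0.08, interval -0.13 to 0.29).

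EDEM1, a mannosidase-like protein that directs misfolded glycoproteins to degradation, measured 35.97, 36.4, 27.6 and 30.97 CPM in NT and 43.7, 42.9, 47.4 and 28.5 CPM in TNF. TNF replicate 4 lay within the NT range and the other TNF libraries above it. Its log2 change of 0.31 did not pass (edgeR adjusted p = 0.176, and 0.124 with the block), whereas the adjusted p was 0.00916 without TNF replicate 4.

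Of ATF4 and 6 genes linked to it or to stress responses, PPP1R15A and VLDLR rose and 5 did not pass. None fell with edgeR, DESeq2 or limma voom, and 1, DDIT4, was lower at an unadjusted p under 0.05. Over all genes tested, edgeR called 14.5% higher and 9.9% lower. PPP1R15A (ENSG00000087074.8, chr19:48872212-48876059, plus strand, 3 exons) encodes GADD34, the subunit that directs a phosphatase to phosphorylated eIF2. Its level was 102, 81.4, 94.5 and 80.8 CPM in NT and 194, 204, 215 and 171 CPM in TNF. The lowest TNF library was well above the highest NT library, and the log2 fold change was the largest of the 32 genes. The fold change was 2.19 (log2 value 1.13 ± 0.10, interval 0.91 to 1.35, edgeR adjusted p = 1.81e-05).

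VLDLR (ENSG00000147852.17, chr9:2621182-2660056, plus strand, 19 exons), the very low density lipoprotein receptor, measured 2.89, 2.24, 2.45 and 2.13 CPM in NT and 5.40, 3.32, 5.33 and 3.04 CPM in TNF. TNF replicates 1 and 3 were well above the other TNF libraries, which lay just above the highest NT library. VLDLR rose by 0.81 ± 0.23 on the log2 scale (edgeR adjusted p = 0.0228). These levels rest on as few as 67 counts in a library, and the adjusted p rose to 0.0682, 0.0547, 0.056, 0.0709 and 0.0672 without NT replicate 2, NT replicate 3, NT replicate 4, TNF replicate 1 and TNF replicate 3.

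ATF4 itself measured 222, 215, 196 and 179 CPM in NT and 223, 227, 225 and 179 CPM in TNF. The groups overlapped across most of their range, and replicate 4 was the lowest library in both. ATF4 differed by 0.07 on the log2 scale, with an interval of -0.15 to 0.29 (edgeR adjusted p = 0.664, and 0.337 with the block), and it took the opposite sign in 1 of the 18 alternative fits.

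DDIT3, which encodes CHOP, measured 3.98, 2.98, 3.59 and 4.03 CPM in NT and 3.65, 2.64, 3.89 and 3.30 CPM in TNF. These low levels, 86 counts in the sparsest TNF library, overlapped, and the log2 change was -0.11 with an interval of -0.50 to 0.27 (edgeR adjusted p = 0.709). CHAC1, which degrades glutathione, measured 4.25, 4.13, 2.61 and 4.03 CPM in NT and 3.59, 3.41, 2.15 and 3.53 CPM in TNF. Replicate 3 was the lowest in both groups, and TNF was below NT on all 4 dates, but the gene did not pass (log2 fold change -0.25, edgeR adjusted p = 0.462, and 0.15 with the block). TRIB3, a pseudokinase that binds ATF4, ranged from 80.2 to 93.4 CPM in NT and from 75.7 to 84.97 CPM in TNF (log2 fold change -0.09, interval -0.25 to 0.07).

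DDIT4, a stress-induced inhibitor of mTORC1, measured 102, 50.1, 42.7 and 91.5 CPM in NT and 64.8, 23.9, 42.3 and 32.5 CPM in TNF. The NT libraries alone spanned more than the difference of the means, and the differences within dates were -0.66, -1.06, -0.01 and -1.49 on the log2 CPM scale. Its log2 change of -0.81 ± 0.35 had a wide interval of -1.60 to -0.02 and an edgeR adjusted p of 0.135 (0.0998 with the block).

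**Figure D3:**
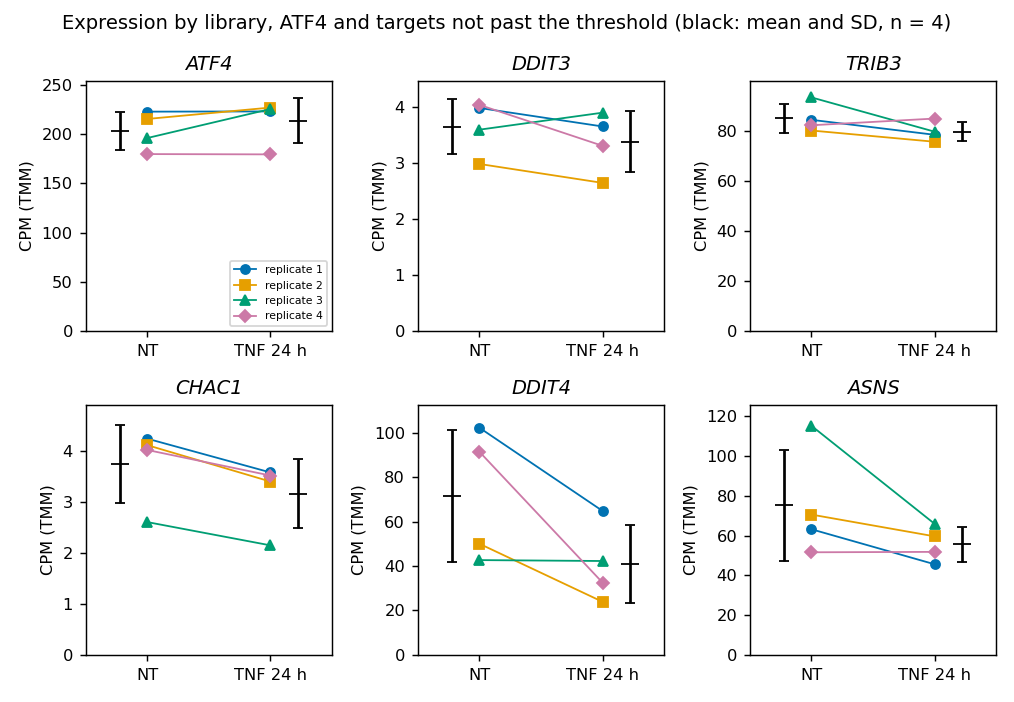
CPM after TMM scaling (y axis) in NT and TNF for ATF4 and 5 genes linked to it that did not pass the threshold, with a line joining the libraries of each experiment date and the mean and SD of 4 libraries in black. The groups overlap in all 6 panels, and the NT spread is wide for DDIT4 (42.7 to 102 CPM) and ASNS (51.6 to 115 CPM).

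Of the 3 enzymes of asparagine and serine synthesis, PSAT1 and PHGDH fell and ASNS did not pass. The shares over all genes tested were 14.5% higher and 9.9% lower. PHGDH (ENSG00000092621.13, chr1:119648411-119744218, plus strand, 12 exons) catalyses the first step of serine synthesis. Its level was 313, 291, 344 and 193 CPM in NT and 179, 161, 199 and 129.9 CPM in TNF. Replicate 4 was the lowest in both groups and made the groups overlap, whereas all 4 dates showed a decrease, of -0.81, -0.85, -0.79 and -0.57 on the log2 CPM scale. The log2 change was -0.77 ± 0.18 (edgeR adjusted p = 0.00986, and 0.0531 with no filter on low counts).

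PSAT1 (ENSG00000135069.14, chr9:78297125-78330093, plus strand, 9 exons), the aminotransferase of the next step, measured 195, 209, 251 and 211 CPM in NT and 109, 113, 121 and 134 CPM in TNF. The highest TNF library was below the lowest NT library. The mean moved from 216 ± 24.1 CPM in NT to 119 ± 11.4 CPM in TNF (SD, n = 4), which is -0.86 ± 0.10 on the log2 scale (edgeR adjusted p = 9.55e-05). PSAT1 was the only member whose groups separated downward, against 11.7% of all genes. The 7 members that rose were the 7 whose groups separated upward, against 15.6% of all genes, and the other 24 overlapped, where 27.3% of all genes separated in either direction.

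ASNS, asparagine synthetase, measured 63.2, 70.6, 115 and 51.6 CPM in NT and 45.6, 59.6, 65.9 and 51.8 CPM in TNF. NT replicate 3 was far above the other NT libraries, which overlapped with TNF. Its log2 fold change of -0.43 (interval -0.93 to 0.07) did not pass with edgeR (adjusted p = 0.206, and 0.0554 with the block), and the date differences were -0.47, -0.24, -0.81 and 0.01 on the log2 CPM scale.

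**Figure D4:**
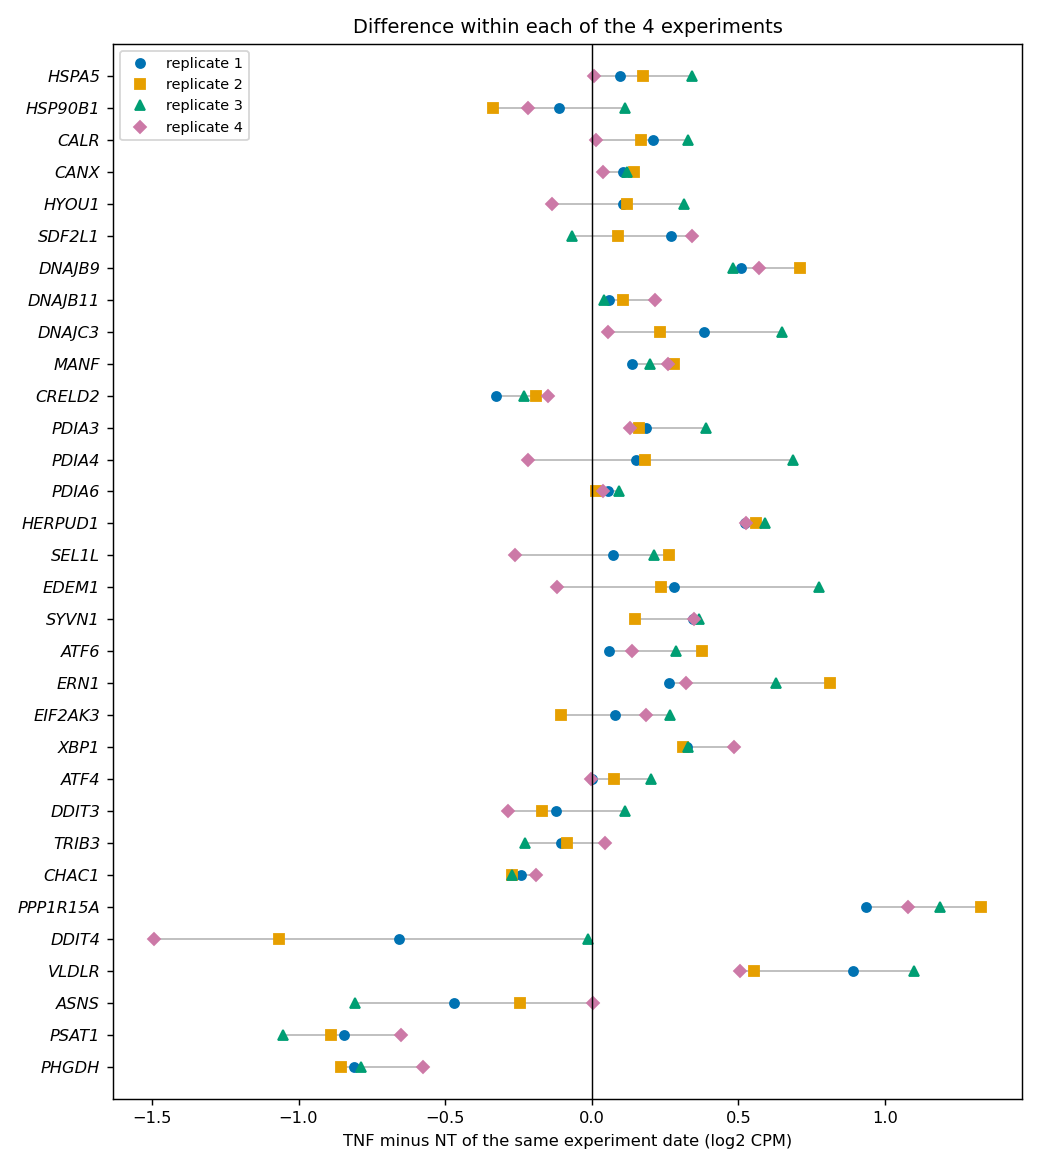
Difference in log2 CPM between the TNF and the NT library of the same experiment date (x axis) for each of the 32 genes (rows), with 1 marker per date. In 16 genes, among them HERPUD1, PPP1R15A and HSPA5, TNF is above NT on all 4 dates, and in 5, among them PSAT1 and PHGDH, below. Replicate 4 lies close to 0 for HSPA5 and below 0 for PDIA4, EDEM1, SEL1L and HYOU1, among others.

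The libraries of experiment 4 differed from the other experiments in several of these genes in both groups. In TNF replicate 4, PDIA4, DNAJC3, EDEM1 and HSP90B1 lay 0.77, 0.74, 0.64 and 0.60 log2 CPM below the mean of TNF replicates 1 to 3, and MANF and DNAJB11 lay 0.48 and 0.41 above it. In NT replicate 4, PHGDH, ASNS and HSP90B1 lay 0.70, 0.63 and 0.49 below the mean of NT replicates 1 to 3, and DDIT4 and MANF lay 0.60 and 0.42 above it. Leaving out both libraries of this experiment left all 9 calls in place and added DNAJC3, PDIA3, PDIA4, EDEM1 and ATF6 to the higher genes, with edgeR adjusted p of 0.00592, 0.031, 0.0321, 0.0177 and 0.0352. In that fit 12 of the 32 were higher and 2 lower, and 15.2% of all genes were higher and 11.5% lower. ATF4, DDIT3, TRIB3 and CHAC1 stayed uncalled without it, with log2 fold changes of 0.08, -0.06, -0.15 and -0.28.

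**Figure D5:**
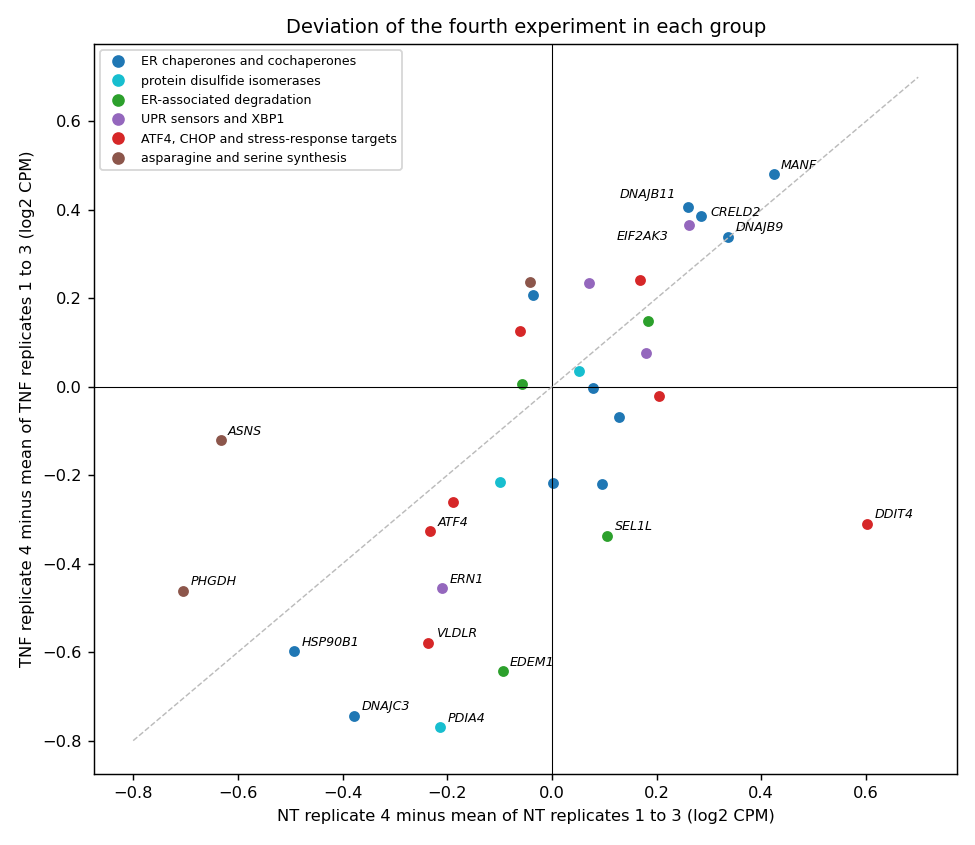
Log2 CPM of replicate 4 minus the mean of replicates 1 to 3 in NT (x axis) and in TNF (y axis), with 1 point per gene coloured by role and a dashed line of equal deviation. PDIA4 and EDEM1 lie low in TNF replicate 4 (-0.77 and -0.64) and closer to 0 in NT replicate 4 (-0.21 and -0.09), while MANF and HSP90B1 deviate alike in both.

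Levels were set side by side as CPM per kilobase of exon union. In NT, CALR had the highest mean at 349 ± 23.6 CPM per kilobase (SD, n = 4), followed by HSPA5 at 135 ± 9.29, and both kept these places when the longest transcript replaced the exon union. PSAT1 was at 98 ± 10.9 by either length, next after HSPA5 by the exon union but below CANX, PDIA6, PDIA3 and ATF4 by the longest transcript, where CANX moved from 71.4 to 137. In TNF, PSAT1 was at 53.97 CPM per kilobase of exon union and PPP1R15A at 57.1, which had been at 26.1 in NT. ATF4 was at 77.8 CPM per kilobase in NT, while DDIT3 and CHAC1, its inducible targets, were at 2.79 and 1.83. The sensors ERN1 and EIF2AK3 were low, at 0.193 and 0.571 CPM per kilobase, against 5.20 for ATF6. For 26 of the 32 genes the level moved by more than the SD of the NT libraries when the length was changed, so the order of levels below HSPA5 depends on the length used.

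Grouped by promoter letters, 2 of the 10 members with ERSE or ERSE-II rose (XBP1 and HERPUD1, whose sites are given above) and none fell with edgeR, DESeq2 or limma voom or at an unadjusted p under 0.05 (3 higher and 1 lower with the block). Their median log2 fold change was 0.13, with a range of -0.22 to 0.55. Of the 21 members with a window and neither element, 5 rose and 2 fell (8 and 2 with the block), with a median of 0.11. Over all genes 14.5% were higher and 9.9% lower, and with the block 21.3% and 18.2%. Among 34 other genes with either element, 19 were tested, of which 3 were higher and 2 lower, with a median of -0.0027. Of the 3 members with CARE, HERPUD1 rose while CHAC1 and ASNS did not pass.

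Lists of 128 other genes of the same pathways were examined alongside, of which 125 were tested. In all, 9 were higher and 10 lower, 15.2% against 24.4% of all genes, and with the replicate block 31 were higher and 28 lower, 47.2% against 39.5%. The counts also depended on scaling. With upper-quartile factors 8 were higher and 19 lower and with library totals 8 and 28, while the share of higher calls among the calls of all genes went from 59.4% to 48.2% and 43.4%. Single libraries moved the number lower to 5, 4, 6 and 21 without NT replicate 2, NT replicate 3, TNF replicate 1 and TNF replicate 4.

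For the lists that follow, the shares of all genes tested were 14.5% higher and 9.9% lower, and 21.3% and 18.2% with the block. Of 22 other genes of ER folding and glycoprotein quality control, 3 were higher and 1 lower (7 and 2 with the block). SELENOK, an ER membrane selenoprotein, rose from a mean of 35.2 to 72.03 CPM (log2 fold change 1.03, edgeR adjusted p = 0.00278), and the prolyl isomerase FKBP2 and the reductase DNAJC10 rose by 0.45 and 0.30. The oxidase ERO1B fell from 28.7 to 14.9 CPM (log2 fold change -0.94, edgeR adjusted p = 4.11e-04). Of 17 tested genes of ER-associated degradation, 1 was higher, the lectin ERLEC1 at 0.36, and none lower (8 and 1 with the block, and 0 lower with DESeq2 and limma voom against 1 at an unadjusted p under 0.05). Of 20 genes of the translocon and signal recognition, 1 was higher, SEC61G at 0.30, and none lower (7 and 2 with the block, and 0 lower with DESeq2 and limma voom against 1 at an unadjusted p under 0.05).

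Of 8 tested UPR transducers and ER-bound transcription factors outside the 32, CREB3L1 and CREB3, which are cleaved in the Golgi, rose by 1.12 and 0.67 on the log2 scale (edgeR adjusted p = 0.0215 and 0.00139). CREB3L1 was low, at a mean of 1.10 CPM in NT with as few as 24 counts in a library, and its groups overlapped. MBTPS2, a protease that cleaves such factors, was lower at -0.22 (edgeR adjusted p = 0.045). Counts on the 13 eIF2 kinases, eIF2, eIF2B and phosphatase subunits gave 0 calls with edgeR and limma voom, 2 lower with DESeq2, and 1 higher and 3 lower at an unadjusted p under 0.05 as well as with the block. Among all genes tested 24.4% were called with edgeR and 39.5% with the block.

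Of 25 tested genes linked to ATF4, 2 were higher and 6 lower (4 and 12 with the block). The secreted glycoprotein STC2 rose from a mean of 9.55 to 25.9 CPM (log2 fold change 1.44, edgeR adjusted p = 4.09e-06) and the transcription factor CEBPB by 1.01 (edgeR adjusted p = 1.06e-05). CTH, which makes cysteine from cystathionine, was lower at -0.80, and the dimerisation protein JDP2 at -0.73 (edgeR adjusted p = 0.0163 and 0.0478). Both were low, with as few as 48 and 36 counts in a TNF library. The JDP2 differences within dates were -0.73, -0.49, -0.45 and -1.46 on the log2 CPM scale, largest in experiment 4. Of the 20 cytosolic aminoacyl-tRNA synthetases, which include ATF4 targets, 2 were lower, FARSB at -0.35 and LARS1 at -0.24, and none was higher with edgeR, DESeq2 or limma voom (1 at an unadjusted p under 0.05, and 1 higher and 7 lower with the block).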

How the data were processed

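The authors aligned reads with Bowtie2 to the GRCh38 transcriptome and estimated gene counts with RSEM 1.2.25. The deposited series table of expected counts was used, rounded to whole numbers, which changed the summed counts by 0.000138%. In the untreated samples, the single-sample files carried another date than the title of their record. Columns of the series table match the titles, which were used for grouping and for pairing by date, and no column was without a sample. The differences within dates and the replicate block rest on this pairing, which is uncertain for the untreated samples. Libraries were made with a stranded polyA kit, and the strand setting of the counting is not given in the sources used here. Antisense or divergent rows held 3.67% as many counts as VLDLR, 2.17% as many as DNAJC3 and 4.36% as many as EIF2AK3.

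Counts were fitted with edgeR 4.0.16 in R 4.3.3 (TMM, robust quasi-likelihood, treatment only, filterByExpr with a minimum count of 10 and a minimum total of 15, threshold 0.05 after Benjamini-Hochberg adjustment over 16186 genes). The study used DESeq2. Here DESeq2 1.42.0, limma voom (limma 3.58.1), other scalings and filters, an adjusted p under 0.01, left-out libraries and a replicate block were alternatives. Log2 CPM used a prior count of 2. The tests were checked on simulated counts. Dates in the titles pair the NT and TNF libraries. The deviations of same-date libraries from their group means correlated at 0.351, 0.169, 0.238 and 0.46 for replicates 1 to 4 over 16186 genes. Libraries of different dates were not correlated in this way, so these values do not test the pairing. No 2 libraries agreed within sampling noise (chi-square per degree of freedom at least 12.2). Libraries held 30989787 to 44373296 counts, and the members 67 to 51863 counts per library.

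The 32 genes and the lists were chosen with earlier results of these data known. All 32 are reported, up to 4 called genes with the largest change are named from each other pathway list, and up to 3 from the lists that check treatment and cell line. The markers named in the lists of cell types, beyond 3 of the cell line, were named outside that rule, after their values were seen. All list genes matched 1 row each, and 207 of 208 had an annotation in GENCODE 44 (Ensembl 110), a later release than the one the authors counted on. ERSE-II was added to the planned motifs.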

Additional observations from a re-analysis of the deposited data

Results flagged for a closer look

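In 6 of 64 groups of 4 libraries (32 genes, NT and TNF), 1 library lay far from the other 3 by Dixon's criterion on log2 CPM, where chance gives about 1 in 20, or 3.2. For HERPUD1, NT replicate 2 was at 5.06 against 5.44 to 5.49 in the other NT libraries, and TNF replicate 2 was at 5.62 against 5.96 to 6.03. For XBP1, NT replicate 2 was at 5.88 against 6.08 to 6.11. For ATF4, TNF replicate 4 was at 7.49 against 7.80 to 7.82. For CHAC1, NT replicate 3 was at 1.42 against 2.03 to 2.11, and TNF replicate 3 was at 1.14 against 1.79 to 1.87. The low libraries of HERPUD1 and of CHAC1 came from the same date in NT and TNF.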

How the results depend on the processing

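DNAJB9, HERPUD1, SYVN1, PPP1R15A and PSAT1 were called in all 18 alternative fits and 15 of the 32 genes in none. Of 576 member values under alternatives, 533 kept their side of the threshold and direction, 19 lost the call, 24 gained it and no called value changed sign. The 7 members higher became 12 with the replicate block, 12 without both libraries of experiment 4, 4 at an adjusted p under 0.01, and 4 to 12 on leaving out 1 library. The 2 lower became 1 with no filter on low counts, and stayed at 2 on leaving out 1 library. For all genes, 2345 higher became 1548 and 1603 lower became 772 at an adjusted p under 0.01, and the number lower became 2514 with library totals and 2946 with the replicate block. For the other pathway lists, 9 higher became 31 with the block, and 10 lower became 19 with upper-quartile factors, 28 with library totals, 28 with the block, 19 without experiment 4, 18 without the 3 libraries with more ribosomal RNA, 4 at an adjusted p under 0.01, and 4 to 21 on leaving out 1 library. Their share of calls that were higher went from 47.4% to 29.6% and 22.2% with upper-quartile factors and library totals. The median log2 fold change of the members was 0.0508 with library totals, which shifted the median of all genes by -0.0828. The causes were not tested. The block changed no call of a member beyond the 6 it added. Depth is low for VLDLR, with as few as 67 counts in a library, CHAC1 (83) and DDIT3 (86), while the widest standard error among the members, 0.35 on the log2 scale, was that of DDIT4, with at least 778 counts.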

Other observations

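Chaperones of the cytosol and mitochondria, which do not work in the ER, were listed for contrast. All 17 had log2 fold changes below 0 (-0.51 to -0.01, median -0.16), against 50.5% of all genes, and in 13 the TNF library was below the NT library on all 4 dates, against 25.9% of all genes. BAG3, a cochaperone of HSP70, fell from a mean of 214 to 167 CPM (log2 fold change -0.36 ± 0.08, edgeR adjusted p = 0.0082). It was the only one called, 1 of 17 against 24.4% of all genes, while the replicate block called 8 lower, 47.1% against 39.5%. None was higher with edgeR, with DESeq2, with limma voom or at an unadjusted p under 0.05.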
